A study of Mus musculus with 12 samples.

Results

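The Ikaros family of zinc finger transcription factors was followed through 4 sorted populations of naive mouse CD4 T cells. Its members were the genes listed under the symbols Ikzf1 (Ikaros, Entrez 22778), Ikzf2 (Helios, 22779), Ikzf3 (Aiolos, 22780) and Ikzf4 (Eos, 22781), which made 4 of the 10073 genes of the expression table. All 4 were measured in all 12 libraries and passed the filter on low values. The family was singled out because of its values in population D against population C. Those values, and all comparisons that use the libraries of D or C, are therefore given as a description with no test. For the 4 members, p-values are given only for B against A, whose values come from other libraries. Its SE is pooled over all 12 libraries, D and C included. The values of B and A too had been seen before the tests were set, so these p-values are no independent evidence.

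Ikaros family proteins bind DNA through zinc fingers near their N-terminus and pair with themselves or with each other through a second group of zinc fingers near the C-terminus. They recruit chromatin complexes, among them the nucleosome remodelling and deacetylase complex NuRD, and can act as repressors or activators. Ikaros is made throughout the lymphoid lineages, Aiolos is best known from B cells and activated T cells, and Helios and Eos are known from Foxp3-positive regulatory T cells, although Helios is also induced in T cells that receive strong antigen receptor signals. The table gives 1 value per gene, so isoforms that lack some of the zinc fingers were not seen.

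The cells came from spleens and lymph nodes of 3 untreated mice on a C57/BL6 background. Every mouse carried the Tg(Nr4a1-EGFP)GY139Gsat transgene, in which regulatory sequence of Nr4a1 (Nur77), an early gene of antigen receptor signalling, drives GFP, together with the Foxp3tm1Flv targeted allele, a red fluorescent reporter of the regulatory T cell factor Foxp3. The labels give no age or sex and no group without the reporters. Cells that were CD4+, low in CD44 and negative for the Foxp3 reporter were divided into population D (high GFP, Ly6C negative), C (intermediate GFP, Ly6C negative), B (intermediate GFP, Ly6C+) and A (low GFP, Ly6C+). Each mouse gave 1 library of each population, so n = 3 per population and libraries are named by population and mouse number, such as D1. Values are RPKM, read numbers scaled to gene length in kilobases and to library depth, so that levels of different genes can be compared. Depth was 6.31 (A3) to 9.07 (C1) M reads, M standing for mega.

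Libraries A1 and B1 went against their labels in part, and this touches every result on A and B. Nr4a1 itself, whose regulatory sequence was used for sorting, stood at 58.7, 64.7 and 67.8 RPKM in D, against 26.3, 28.3 and 23.4 RPKM in C. It stood at 36.0, 73.3 and 64.6 RPKM in B, against 57.7, 26.1 and 22.9 RPKM in A, so B1 lay below the other B libraries and A1 above the other A libraries. For other transcripts these libraries lay with their own populations: Dntt was at 7.91 RPKM in B1, near the 5.79 and 5.52 RPKM of the other B libraries, and at 13.98 RPKM in A1, near the 15.2 and 13.2 RPKM of the other A libraries. Libraries kept their labels here, and the members' A and B comparisons and the counts of regulatory T cell markers, NuRD genes and all partner genes for B minus A are given with and without A1 and B1. These 2 libraries were left out because of their values, so figures without them are no independent evidence. The Ly6C gate did not show in its own transcript either. Ly6c1, one of the genes for Ly6C, averaged 43.7 ± 5.10 RPKM in D and 64.3 ± 4.36 RPKM in C, and 43.9 ± 6.53 RPKM in B and 64.6 ± 7.40 RPKM in A (SD, n = 3 each), so the libraries labelled Ly6C negative and Ly6C+ were not set apart by it. D differed from C, and B from A, in Ly6c1 as well as in GFP. Library C3 stood apart in another way, with 709 RPKM of the antibody joining chain Jchain, 209 RPKM of Cd74 and 17.0 RPKM of the proliferation marker Mki67. The T cell identity itself held in all libraries: Cd4 ranged over 223.5 to 249.5 RPKM, and the naive T cell markers Cd3e, Cd3d, Lef1, Tcf7 and Ccr7 were measured in every library, with a lowest value of 60.3 RPKM for Lef1.

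The 4 genes differed widely in level. Ikzf1 had the highest mean over the 12 libraries, 123.8 RPKM, above 96.8% of the 10021 genes tested. Ikzf3 followed with 41.3 RPKM, above 85.0% of genes, then Ikzf4 with 5.12 RPKM (22.7%) and Ikzf2 with 3.13 RPKM (13.8%). This order of levels per length was the same in each of the 12 libraries. Depth limited the low members most: Ikzf2 rested on 33 to 641 reads per library and Ikzf4 on 64 to 348, against 1204 to 3592 for Ikzf3 and 7036 to 10513 for Ikzf1. They also differed in how much they varied. The coefficient of variation over the 12 libraries was 86.6% for Ikzf2, 59.3% for Ikzf4 and 32.4% for Ikzf3, larger than those of 99.5%, 99.0% and 96.8% of tested genes. For Ikzf1 it was 5.08%, below the 8.75% of the median gene.

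**Figure D1:**
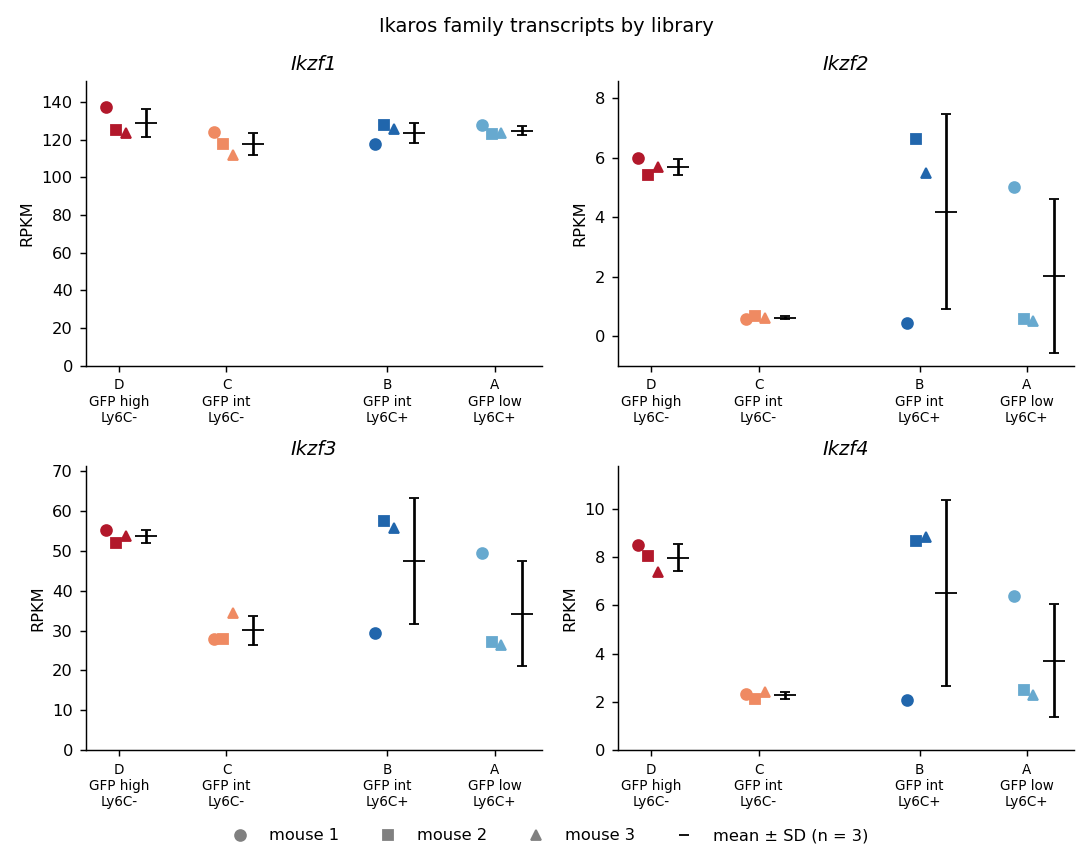
RPKM (vertical axis) of the 4 Ikaros family genes in each library of populations D, C, B and A. Symbols stand for mice and black bars for the mean ± SD over 3 libraries. Ikzf1 lies between 112.1 and 137 RPKM throughout, while Ikzf2, Ikzf3 and Ikzf4 each form an upper and a lower set of 6 libraries, in which A1 lies with the upper and B1 with the lower set; the SD bar of Ikzf2 in A reaches below 0 because the SD (2.59 RPKM) exceeds the mean (2.03 RPKM).

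Ikzf1, which is required for lymphocyte development, was close to even across the populations. It stood at 137, 125 and 124 RPKM in D, against 124, 118 and 112.1 RPKM in C. D and C overlapped, with C1 above D3. It stood at 118, 128 and 126 RPKM in B, against 128, 123 and 124 RPKM in A, where the ranges also overlapped. Ordered by mean, D (128.8 ± 7.53 RPKM, SD) was followed by A (124.8 ± 2.46), B (123.7 ± 5.28) and C (117.8 ± 5.92), and no neighbours in this order were further apart than the larger of their SDs.

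The promoters of Ikzf1 are shown because it is the one member with RefSeq promoter windows here (1 of 4 matched), and because its even transcript level is the baseline against which the others vary. Each window runs from 250 bases before to 50 bases after a start site of the plus strand, in build GRCm38.p6. Capitals mark the letters GGGAA, the core of known Ikaros binding sites, or TGGGAG, found on either strand; TGGGAG was added after the Dntt window shown later had been read, and the sets of matches do not overlap. GGGAA includes the GGAA core of ETS factor sites, and 62.7% of 32851 mouse promoter windows of this length hold it, while 27.1% hold it at least 2 times. TGGGAG is in 29.1% of the windows.
Ikzf1 start site 1, chr11:11685675-11685974: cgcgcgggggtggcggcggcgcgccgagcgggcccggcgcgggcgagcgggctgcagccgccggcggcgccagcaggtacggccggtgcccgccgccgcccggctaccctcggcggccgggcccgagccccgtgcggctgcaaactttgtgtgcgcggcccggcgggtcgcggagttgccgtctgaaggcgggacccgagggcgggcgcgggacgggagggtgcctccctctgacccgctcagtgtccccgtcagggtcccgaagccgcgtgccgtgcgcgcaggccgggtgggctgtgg
Ikzf1 start site 2, chr11:11689927-11690226: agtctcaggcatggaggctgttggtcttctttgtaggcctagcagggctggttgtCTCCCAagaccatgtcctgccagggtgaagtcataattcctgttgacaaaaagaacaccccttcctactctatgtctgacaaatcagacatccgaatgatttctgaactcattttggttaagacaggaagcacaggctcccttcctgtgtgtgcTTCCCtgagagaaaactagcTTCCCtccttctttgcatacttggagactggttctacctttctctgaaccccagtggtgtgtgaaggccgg
The first window is 81.3% G or C and holds neither run of letters. The second is 49.0% G or C and holds GGGAA on the opposite strand at positions 210 and 230 of the window, counted from its 5′ end, and TGGGAG on the opposite strand at position 56. These letter matches describe the windows and say nothing of binding.

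Ikzf2, which encodes Helios, showed the widest range. It stood at 5.98, 5.43 and 5.69 RPKM in D, against 0.568, 0.686 and 0.612 RPKM in C. The ranges were far apart, and the means differed 9.17-fold (5.70 ± 0.274 RPKM in D and 0.622 ± 0.0596 RPKM in C, SD, n = 3 each). In B it stood at 0.444, 6.62 and 5.49 RPKM, against 5.02, 0.569 and 0.492 RPKM in A. Thus B2, B3 and A1 lay within or near the range of D, and B1, A2 and A3 within or near that of C. In read numbers, D libraries together held 1629 Ikzf2 reads and C libraries 158. Ordered by mean, D was followed by B (4.18 ± 3.29 RPKM), A (2.03 ± 2.59) and C, and B differed from neither neighbour, nor A from C, beyond its spread.

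Ikzf4, which encodes Eos, a partner of Foxp3 in gene repression by regulatory T cells, had the same arrangement at a smaller fold. It stood at 8.50, 8.04 and 7.38 RPKM in D, against 2.31, 2.12 and 2.42 RPKM in C. The ranges did not overlap, and the means of 7.97 ± 0.562 RPKM in D and 2.28 ± 0.150 RPKM in C (SD, n = 3 each) differed 3.49-fold. In B it stood at 2.08, 8.67 and 8.81 RPKM, against 6.40, 2.48 and 2.27 RPKM in A. B1 was the lowest of all 12 libraries, while B2 and B3 were the highest. B averaged 6.52 ± 3.85 RPKM and A 3.72 ± 2.32 RPKM, so the neighbours in the order D, B, A, C did not differ beyond their spread.

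Ikzf3, which encodes Aiolos, was the abundant member that varied. It stood at 55.1, 51.9 and 53.8 RPKM in D, against 27.8, 28.0 and 34.3 RPKM in C. The ranges did not overlap, and the means of 53.6 ± 1.63 RPKM in D and 30.0 ± 3.72 RPKM in C (SD, n = 3 each) differed 1.78-fold. The highest C value was that of C3, the library rich in Jchain; the part of those transcripts in the Ikzf3 value was not tested. In B it stood at 29.3, 57.5 and 55.7 RPKM, against 49.4, 27.1 and 26.2 RPKM in A. B2 and B3 exceeded every D library, and B1 lay among the C libraries. B averaged 47.5 ± 15.8 RPKM and A 34.2 ± 13.1 RPKM, and here too neighbours in the order D, B, A, C did not differ beyond their spread.

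On the scale of log2(RPKM + 0.5), fitted over all 12 libraries, the difference of D minus C was 2.47 ± 0.71 (SE) for Ikzf2, 1.61 ± 0.43 for Ikzf4, 0.83 ± 0.25 for Ikzf3 and 0.13 ± 0.05 for Ikzf1. The pseudocount of 0.5 holds back the figure for Ikzf2, whose C values lie near it. These standard errors take in the spread within B and A; with the 6 libraries of D and C alone they were 0.10 for Ikzf2, 0.093 for Ikzf4 and 0.083 for Ikzf3. Ikzf2, Ikzf3 and Ikzf4 were higher in D without overlap, as were 14.1% of all tested genes. The same direction appeared in every mouse. The ratio of D to C was 10.5, 7.92 and 9.30 in mice 1, 2 and 3 for Ikzf2. It was 3.68, 3.79 and 3.05 for Ikzf4, 1.98, 1.86 and 1.57 for Ikzf3, and 1.11, 1.07 and 1.10 for Ikzf1. Without C3 the log2 difference of Ikzf3 was 0.93.

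In the Ly6C+ pair, B minus A, none of the 4 members passed the test. With limma and Benjamini-Hochberg adjustment over all 10021 genes, the log2 difference was 0.93 ± 0.71 for Ikzf2 (SE, adjusted p = 0.455), 0.65 ± 0.43 for Ikzf4 (0.387), 0.47 ± 0.25 for Ikzf3 (0.291) and -0.01 ± 0.05 for Ikzf1 (0.901). The ranges of B and A overlapped for all 4, as against 29.2% of genes without overlap. Of all genes, 2.23% passed in this comparison (223). That number was 2 with the mouse as a block, 0 without A2, B2 or B3 and 461 without C1 or C3, so the background is itself unsettled. At an unadjusted p under 0.05 there were 0 of the 4 members, also with limma-voom on recovered reads, beside 23.1% of all genes. The mice differed in direction. For Ikzf2 the ratio of B to A was 0.0884 in mouse 1, 11.6 in mouse 2 and 11.2 in mouse 3. For Ikzf4 it was 0.325, 3.49 and 3.88, and for Ikzf3 0.593, 2.12 and 2.12 in the same order of mice. Ikzf1 gave 0.922, 1.04 and 1.02.

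Leaving out A1 and B1 together gave 2.66 ± 0.13 for Ikzf2 (SE, adjusted p = 1.05e-06), 1.68 ± 0.10 for Ikzf4 (6.34e-06) and 1.07 ± 0.09 for Ikzf3 (5.64e-05) in limma on the other 10 libraries. Ikzf1 then differed by 0.04 ± 0.06 (adjusted p = 0.736). The share of all genes that passed was 10.9% in that fit. These 2 libraries were left out because of values like these, so the second set of figures shows how far the result rests on them and is no independent evidence. Leaving out B1 alone, limma gave adjusted p = 0.0755 for Ikzf2, 0.0506 for Ikzf4 and 0.0633 for Ikzf3; leaving out A1 alone, it gave 0.122, 0.143 and 0.0762.

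**Figure D2:**
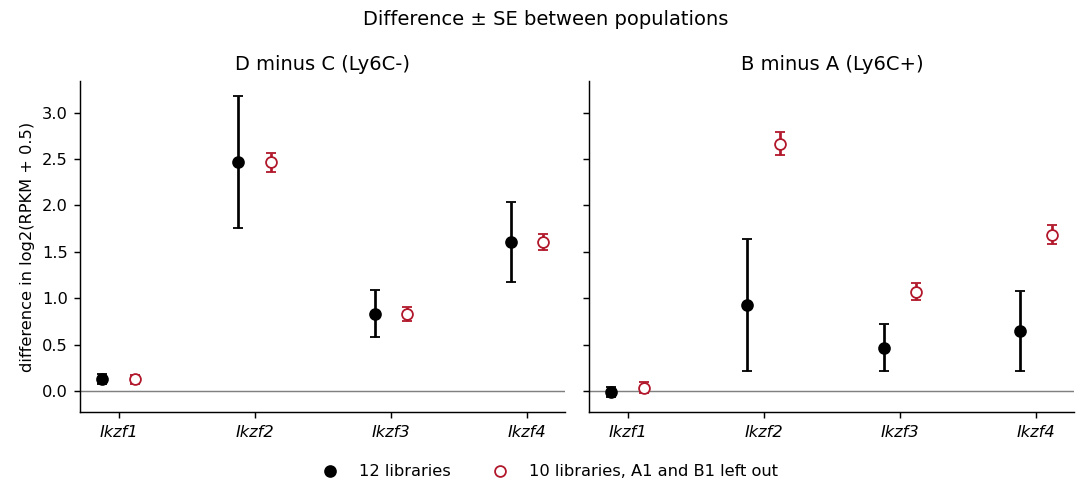
Difference in log2(RPKM + 0.5) (vertical axis) for each family member, D minus C on the left and B minus A on the right, with bars for the SE. Black points come from all 12 libraries and open red points from the 10 libraries without A1 and B1. For B minus A the Ikzf2 point lies at 0.93 with all libraries and at 2.66 without A1 and B1, where its bar is also shorter. The D minus C points use no A or B library and so cannot move, but their bars shorten too, for Ikzf2 from 0.71 to 0.10.

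The remaining comparisons share libraries with D minus C or B minus A and with each other. D minus A, the pair furthest apart in GFP, gave log2 differences of 1.78 ± 0.71 for Ikzf2, 1.14 ± 0.43 for Ikzf4, 0.70 ± 0.25 for Ikzf3 and 0.04 for Ikzf1. In this pair the D libraries of Ikzf2, Ikzf3 and Ikzf4 lay above the A libraries without overlap, as for 14.1% of genes, although A1 came close. Without A1 the values were 2.59 for Ikzf2, 1.56 for Ikzf4 and 0.99 for Ikzf3. C and B share the label of intermediate GFP and differ in Ly6C, although Nr4a1 mRNA averaged 26.0 ± 2.48 RPKM in C and 58.0 ± 19.5 RPKM in B, and Ly6c1 mRNA was the higher in C. C minus B was -1.61 ± 0.71 for Ikzf2, -1.12 ± 0.43 for Ikzf4, -0.60 ± 0.25 for Ikzf3 and -0.07 for Ikzf1, with overlap in all 4 because B1 lay among or below the C libraries; 15.1% of all genes did not overlap in this pair. Without B1 the values were -2.54 for Ikzf2, -1.73 for Ikzf4 and -0.91 for Ikzf3. D minus B was 0.85 for Ikzf2, 0.49 for Ikzf4 and 0.23 for Ikzf3, and C minus A was -0.69, -0.47 and -0.13, again with overlap, beside 11.0% and 17.9% of genes without it. Each of these differences rested on 1 library. Without B1, D minus B turned to -0.08 for Ikzf2, -0.13 for Ikzf4 and -0.08 for Ikzf3. Without A1, C minus A was 0.12 for Ikzf2, -0.05 for Ikzf4 and 0.16 for Ikzf3.

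The same 6 libraries, D1, D2, D3, B2, B3 and A1, formed the upper set for Ikzf2, Ikzf3 and Ikzf4, and A1 was the lowest of them for all 3 genes. The step between the sets was 7.32-fold for Ikzf2, between A1 at 5.02 RPKM and C2 at 0.686 RPKM. It was 2.58-fold for Ikzf4, between A1 at 6.40 RPKM and A2 at 2.48 RPKM. It was 1.44-fold for Ikzf3, between A1 at 49.4 RPKM and C3 at 34.3 RPKM. The largest step of Ikzf1 was 1.08-fold and set D1 alone apart.

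Summed over the family, the level was 207, 190.5 and 190.5 RPKM in D, against 155, 148 and 149 RPKM in C. It was 149.5, 200.5 and 196 RPKM in B, against 188, 153 and 153 RPKM in A. The sum was thus highest in the 6 libraries of the upper set. Ikzf1 made up 64.9% to 66.4% of it in D and 75.0% to 80.2% in C, and between 63.7% (B2) and 81.0% (A3) over all libraries. Ikzf3 supplied 26.6% to 28.2% in D and 18.0% to 23.0% in C. Ikzf2, the smallest part, supplied 2.85% to 2.99% in D and 0.367% to 0.463% in C. Ikzf3 thus made the largest part of the difference in the sum, although Ikzf2 differed most by fold.

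**Figure D3:**
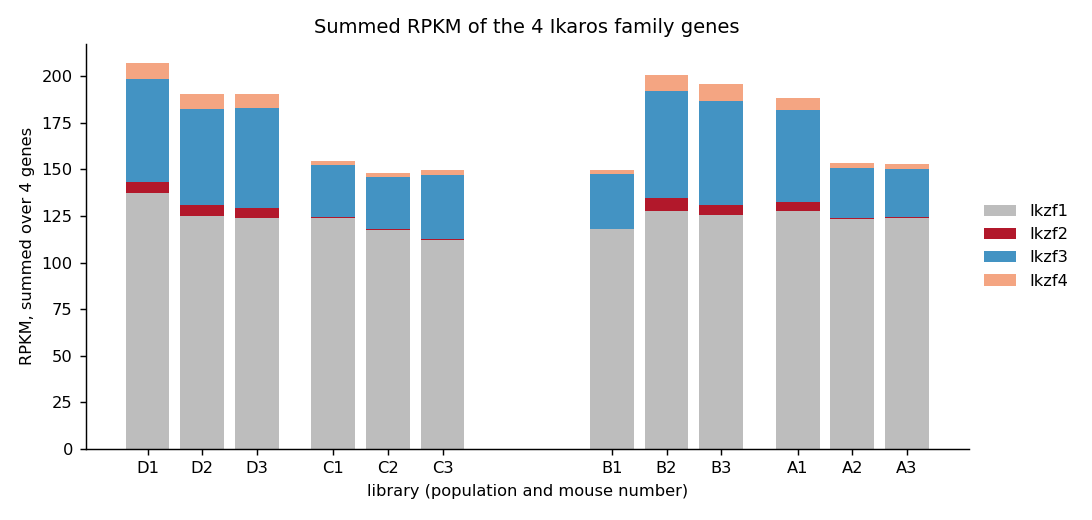
Summed RPKM of the 4 Ikaros family genes (vertical axis) in each of the 12 libraries, grouped by population D, C, B and A and numbered by mouse, with the part of each gene in its own colour. The blue Ikzf3 part makes the largest part of the step between libraries such as D1 (207 RPKM) and C1 (155 RPKM). The grey Ikzf1 part varies little for its size but adds to that step, at 137 RPKM in D1 and 124 RPKM in C1.

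The genes most like each member were ranked among the 10020 other tested genes by Pearson's r of log2(RPKM + 0.5) over the 12 libraries. All points share libraries and depth, and the members' values fall into 2 separate sets, so that any gene with the same sets has an r near 1; r is a description here. Ikzf2 was most like Myb (r = 0.996), a transcription factor of progenitors and T cells, and Tnfrsf9 (0.995), the costimulatory receptor 4-1BB. Phactr2, the integrin chain Itga9 and Rasgef1a followed (0.994, 0.994 and 0.993). Ikzf4 had Phactr2 (0.991), Tnfrsf9 (0.989), the nuclear receptor corepressor Nrip1 (0.989), Tns1 (0.989) and the repressor Bcl6 (0.988), best known from follicular helper T cells. Ikzf3 had Hivep3 (0.992), Nrip1 (0.989), the growth factor receptor Igf1r (0.989), Tox2 (0.989) and Bcl2l11 (0.989), which encodes the pro-apoptotic protein Bim. Among the members, r was 0.992 for Ikzf2 with Ikzf4, 0.981 for Ikzf2 with Ikzf3 and 0.980 for Ikzf3 with Ikzf4.

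Ikzf1 had other neighbours and lower values of r: Timp2 (0.946), Slfn5 (0.945), Wdr26 (0.942), the splicing factor Sf3b1 (0.940) and the ubiquitin ligase Trip12 (0.937). With Ikzf2, Ikzf3 and Ikzf4 its r was 0.680, 0.586 and 0.696. Its highest library was D1 and its lowest C3.

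Ikzf5 (Pegasus), the most distant gene of the family and no member here, stood at 14.2, 12.96 and 12.98 RPKM in D, against 14.0, 13.0 and 14.8 RPKM in C. It stood at 12.0, 13.8 and 14.0 RPKM in B, against 14.9, 15.2 and 15.6 RPKM in A. B lay below A without overlap, as did 15.8% of tested genes, but the log2 difference of -0.19 ± 0.07 did not pass (SE, limma adjusted p = 0.137). D minus C was -0.06 ± 0.07 (adjusted p = 0.717), so Ikzf5 showed none of the step seen in Ikzf2, Ikzf3 and Ikzf4, and its r with Ikzf2 was -0.124.

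**Figure D4:**
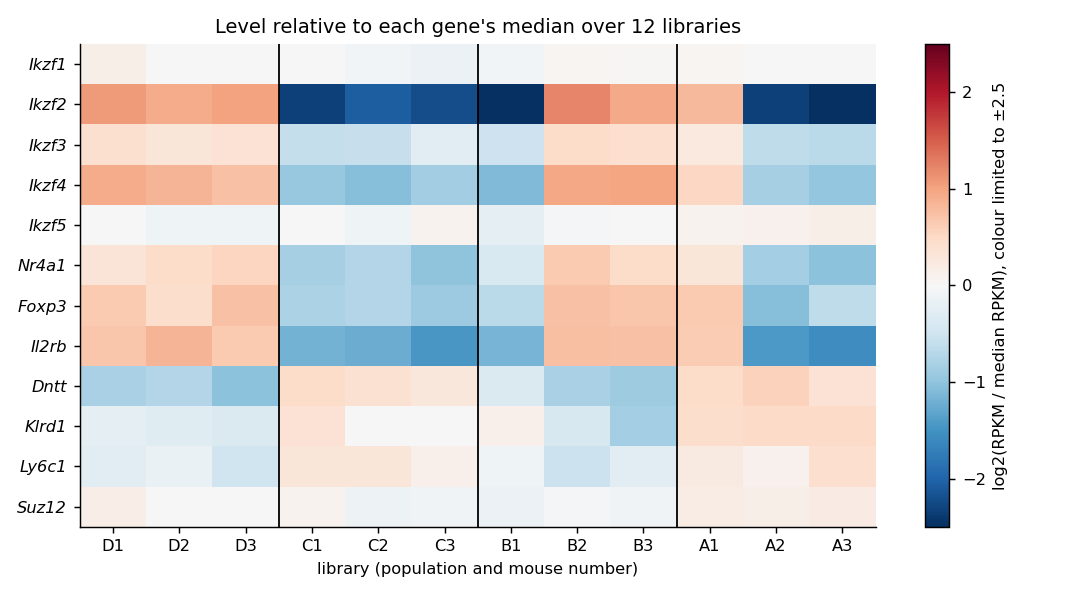
Level of each gene (rows) in each library (columns, populations D, C, B and A from left to right, numbered by mouse) as log2 of RPKM over that gene's median in 12 libraries, with red above and blue below the median and colours limited at 2.5. Ikzf2, Ikzf3, Ikzf4, Nr4a1, Foxp3 and Il2rb share high values in D1 to D3, B2, B3 and A1, while Dntt is low in all D and B libraries and high in all C and A libraries.

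Helios and Eos are known from regulatory T cells, so the markers of those cells are given beside them, although the sort removed cells with the Foxp3 reporter. Foxp3 mRNA stood at 3.77, 3.25 and 3.99 RPKM in D, against 1.38, 1.45 and 1.27 RPKM in C. It stood at 1.51, 4.00 and 3.88 RPKM in B, against 3.76, 1.15 and 1.53 RPKM in A. Foxp3 was thus detected in every library, and its high libraries were the same 6 as those of Ikzf2, Ikzf3 and Ikzf4. Its r with Ikzf2 was 0.983. Of 12 regulatory T cell markers, 10 were measured and their summed level was 141 to 164 RPKM in D, against 70.6 to 78.3 RPKM in C. The sum was 79.4, 149 and 144 RPKM in B, against 148, 70.8 and 63.8 RPKM in A. In D minus C, 0 of the 10 passed with limma or with limma-voom, and 7 had an unadjusted p under 0.05 with either (18.1% of all genes had one in limma). The median log2 difference of the 10 was 1.02, beside 0.01 for all genes. With the 6 libraries alone 7 passed as higher, as did 336 of 10021 genes, with 4.80% of all genes passing in either direction. The nearest were Tnfrsf18, which encodes the receptor GITR (0.35 ± 0.07, adjusted p = 0.106), and the folate receptor Izumo1r (1.35 ± 0.33, adjusted p = 0.106). Between B and A, 0 of 10 passed with either tool, with 1 at an unadjusted p under 0.05 in limma (23.1% of all genes) and 2 in limma-voom. Without A1 and B1, 7 of the 10 passed as higher in B, as did 667 of 10021 genes. Foxp3 was among the 7 at 1.28 ± 0.14 (limma adjusted p = 0.000324). In that fit 9 of the 10 had an unadjusted p under 0.05 and the median was 1.29, with 10.9% of all genes passing in either direction. Foxp3 was high in A1 and low in B1, as were the genes for which these libraries were left out. These figures are therefore no independent evidence. With all 12 libraries Tnfrsf18 and Izumo1r were again the nearest in B minus A, at 0.20 ± 0.07 (limma adjusted p = 0.121) and 0.68 ± 0.33 (limma adjusted p = 0.237). The part of regulatory T cell transcripts in the Ikzf2, Ikzf3 and Ikzf4 differences was not tested, and in bulk libraries a change in the number of such cells and in RNA per cell cannot be told apart.

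Markers of other cell types were read in the same way. Among effector and memory T cell markers, Il2rb, a chain of the receptors for interleukins 2 and 15, averaged 32.0 ± 2.35 RPKM in D and 7.88 ± 0.764 RPKM in C (log2 difference 1.95 ± 0.53, adjusted p = 0.110). In B minus A the log2 difference of Il2rb was 0.86 ± 0.53 (limma adjusted p = 0.346), and 2.16 ± 0.10 without A1 and B1 (limma adjusted p = 1.00e-06). Il2rb went against the labels too, at 29.7 RPKM in A1 and 8.61 RPKM in B1. It stood at 7.10 and 6.53 RPKM in A2 and A3, and at 32.2 and 32.0 RPKM in B2 and B3. The figure without A1 and B1 is thus no independent evidence. That list mixes genes gained and lost by memory cells, and 4 of its 10 genes were measured. Their median log2 difference was -0.05 in D minus C and -0.06 in B minus A, beside 0.01 for all genes in both. None of the measured genes passed in either comparison with limma or limma-voom on all 12 libraries. Il2rb in D minus C was the one with an unadjusted p under 0.05. Of 10 B cell and plasma cell markers 4 were measured, at 28.2 to 50.3 RPKM in D, against 22.6, 28.5 and 1071 RPKM in C, and at 31.6 to 46.1 RPKM in B, against 29.0 to 34.6 RPKM in A. The proliferation markers, 3 of 6 measured, summed to 99.2 to 106 RPKM in D, against 99.2 to 114 RPKM in C, and to 92.7 to 102 RPKM in B, against 95.9 to 111 RPKM in A. None of the B cell, plasma cell or proliferation markers had an unadjusted p under 0.05 in either comparison with limma or limma-voom on all 12 libraries. With the 6 libraries of B and A alone, 1 of the 4 B cell and plasma cell markers passed as higher in B, as did 61 of 10021 genes. Of 6 CD8 T cell and NK cell markers, Cd8b1 and Klrd1 were measured, at a sum of 19.9 to 21.0 RPKM in D, against 25.0 to 30.8 RPKM in C, and of 17.6 to 24.6 RPKM in B, against 29.7 to 31.5 RPKM in A. Klrd1, an NK cell receptor chain, fell in B relative to A by 0.81 ± 0.17 on the log2 scale (limma adjusted p = 0.0463); 11 of 22 alternatives, with adjusted p up to 0.151, did not keep this call. The part of these markers in the family's values was not tested.

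The partners and targets of the family were read from lists chosen with earlier results known. Over the 4 lists and Ikzf5, 30 of 39 genes were in the table and all 30 were tested. In D minus C, 1 of the 30 passed, and it was lower. The share over all genes was 0.00998%, that is 1 gene, the same one. This gene, Dntt, was listed with its fall in these data already known, so counts that hold it are no evidence about the lists. The number for all genes was 288 without A1, 398 without B1 and 765 without both, as A and B enter the pooled spread. In B minus A, 2 of the 30 passed, both lower, beside 2.23% of all genes and 1.66% that were lower. The limma-voom counts were the same. Without A1 and B1, 5 of the 30 passed in B minus A, 3 higher and 2 lower, beside 10.9% of all genes.

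The gene that passed in both was Dntt, which encodes terminal deoxynucleotidyl transferase, the enzyme that adds nucleotides at antigen receptor gene joints. Ikaros was first described by its binding to the Dntt promoter. Dntt was listed here with its fall in these data already known, so its p-values are no independent evidence. It stood at 5.82, 6.16 and 4.98 RPKM in D, against 13.98, 13.3 and 12.5 RPKM in C. Its log2 difference was -1.16 ± 0.12 (SE, limma adjusted p = 0.00404), past the threshold in 22 of 22 alternatives, where adjusted p ran from 2.09e-05 to 0.0452. In B it stood at 7.91, 5.79 and 5.52 RPKM, against 13.98, 15.2 and 13.2 RPKM in A, a log2 difference of -1.09 ± 0.12 (limma adjusted p = 0.00791). That call was lost without A2 (adjusted p = 0.0890), without B2 (0.0550) and without B3 (0.0591), each by limma. Unlike Ikzf2, Ikzf3 and Ikzf4, Dntt kept D and B below C and A in A1 and B1 too, and its r with Ikzf2 was -0.750.

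The promoter of Dntt is shown because it is the target that passed in both comparisons. Its window has the same length, build and plus strand as those of Ikzf1, and capitals mark the same letters.
Dntt start site, chr19:41029025-41029324: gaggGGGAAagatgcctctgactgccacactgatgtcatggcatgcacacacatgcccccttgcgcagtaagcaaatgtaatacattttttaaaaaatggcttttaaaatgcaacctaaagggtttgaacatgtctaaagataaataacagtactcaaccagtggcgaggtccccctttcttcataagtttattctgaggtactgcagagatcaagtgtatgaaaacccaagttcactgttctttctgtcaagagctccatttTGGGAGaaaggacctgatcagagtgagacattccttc
It is 42.3% G or C and holds GGGAA at position 5 and TGGGAG at position 264, both on the strand shown. The second match lies 13 to 18 bases past the start site. With GGGAA in 62.7% and TGGGAG in 29.1% of all windows, the matches do not set Dntt apart.

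Of 13 genes listed as Ikaros targets, 5 were measured (Dntt, Dtx1, Cd8b1, Cd4 and Myc) and the other 8 were not analysed here. Their median log2 difference was -0.24 in D minus C and -0.03 in B minus A, beside 0.01 for all genes in both. At an unadjusted p under 0.05 in limma there were 3 of 5 in D minus C (18.1% of all genes) and 2 of 5 in B minus A (23.1%). With the 6 libraries of each pair alone, 2 of 5 passed as lower in each comparison, as did 145 of 10021 genes in D minus C and 319 in B minus A. Without A1 and B1, 3 passed as lower in D minus C and 2 in B minus A, as did 259 and 427 of all genes. Cd8b1, a chain of the CD8 coreceptor, had -0.44 ± 0.09 in D minus C (adjusted p = 0.106) and -0.35 ± 0.09 in B minus A (adjusted p = 0.0554), and the growth regulator Myc had -0.24 ± 0.08 in D minus C (adjusted p = 0.154), all by limma.

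All 13 listed genes of the NuRD complex, the main chromatin partner of Ikaros and Aiolos, were measured. None passed in D minus C with limma or limma-voom, 4 had an unadjusted p under 0.05 with either (18.1% of all genes in limma), and the median log2 difference was 0.07, beside 0.01 for all genes. The nearest were the histone-binding subunit Rbbp7, at 60.9 ± 1.04 RPKM in D and 51.1 ± 3.72 RPKM in C (0.25 ± 0.06, adjusted p = 0.106), and the deacetylase Hdac1, at 100.4 ± 2.19 RPKM in D and 85.6 ± 3.60 RPKM in C (0.23 ± 0.06, adjusted p = 0.106). In a fit of D and C alone Hdac1 passed (adjusted p = 0.0345), beside 4.80% of genes. For B minus A none passed with either tool, 5 had an unadjusted p under 0.05 (23.1% of all genes in limma) and the median was 0.08. With all 12 libraries the nearest in B minus A were Mta1 (0.16 ± 0.04, limma adjusted p = 0.0724) and the remodelling subunit Chd3 (0.17 ± 0.05, limma adjusted p = 0.0776). Without A1 and B1, 3 of the 13 passed as higher (Gatad2b, Hdac1 and Mta1), as did 667 of 10021 genes, with 10.9% of all genes passing in either direction. In that fit 8 had an unadjusted p under 0.05 and the median was 0.13.

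Among 6 of 7 other corepressor genes measured, none passed in D minus C with limma or limma-voom on all 12 libraries. Without A1 and B1, 1 of the 6 passed as higher in D, as did 506 of 10021 genes. With all 12 libraries, 1 had an unadjusted p under 0.05 (18.1% of all genes) and the median was 0.05. The histone methyltransferase Ezh2 stood at 14.1 ± 0.569 RPKM in D and 10.3 ± 1.73 RPKM in C (0.45 ± 0.13, adjusted p = 0.124), and Sin3a differed by 0.08 ± 0.04 (adjusted p = 0.307). In B minus A, Suz12, another subunit of the Polycomb complex of Ezh2, was lower at 34.3 ± 1.31 RPKM in B and 41.5 ± 0.743 RPKM in A (-0.27 ± 0.06, limma adjusted p = 0.0487). With the mouse as a block the limma adjusted p was 0.0711, and 12 of 22 alternatives lost this call, with adjusted p from 0.0207 to 0.153. Without A1 and B1 no gene of this list passed in B minus A. The substrate receptor Crbn and the other cereblon ligase genes, 5 of 5 measured, matter for Ikaros and Aiolos because human cereblon targets both proteins for degradation when bound by thalidomide analogues. None of them passed with limma or limma-voom on all 12 libraries in either comparison. With the 6 libraries of B and A alone, 1 of the 5 passed as lower in B, as did 319 of 10021 genes. In D minus C none had an unadjusted p under 0.05, beside 18.1% of all genes, and the nearest were Cul4b (0.25 ± 0.14, adjusted p = 0.349) and Ddb1 (0.06 ± 0.04, adjusted p = 0.541). Between B and A, 2 of 5 had an unadjusted p under 0.05, beside 23.1% of all genes: Crbn (-0.35 ± 0.10, adjusted p = 0.0856) and Cul4b (-0.40 ± 0.14, adjusted p = 0.114).

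**Figure D5:**
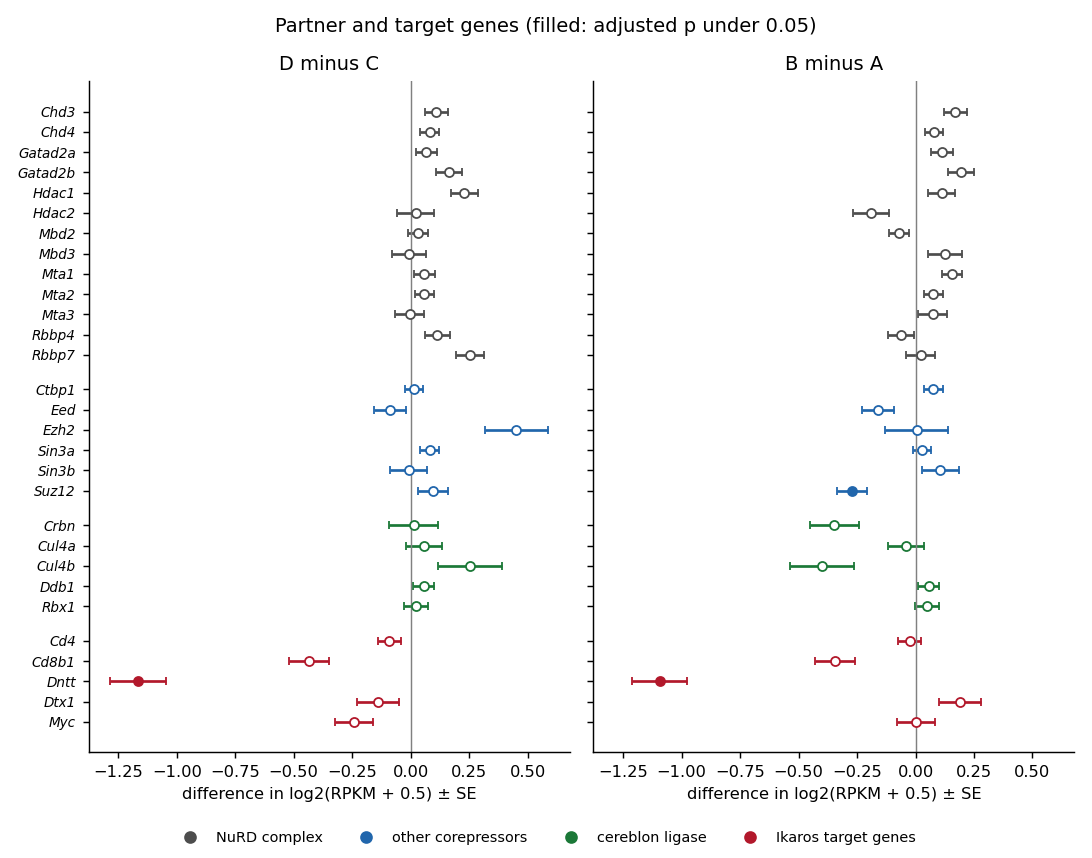
Difference in log2(RPKM + 0.5) ± SE (horizontal axis, shared by both panels) for each measured gene of the partner and target lists (rows), D minus C on the left and B minus A on the right, coloured by list and filled where the adjusted p was under 0.05. Dntt is filled in both panels at -1.16 and -1.09 and Suz12 in B minus A at -0.27; the other genes are open, most of them close to 0.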

How the data were processed

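RNA was measured in 12 libraries, 4 sorted populations from each of 3 mice. RNA, from cells sorted into RLT buffer, was purified with Quick-RNA MicroPrep and libraries of polyadenylated RNA were made with SMART-seq v4 and NexteraXT, per the labels' protocols. STAR and both mm9 and mm10 appear in the submitters' processing notes, without roles; how reads were counted, with which annotation and strand setting, is not given in the sources used.

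The authors deposited 1 table of RPKM values, per the file headers. Whole reads came back within 0.1 read for 100.0% of the values examined, which gave the depths; listed genes held 99.07% to 99.71% of reads.

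The filter was a mean of 0.5 RPKM or more, which kept 10021 of 10073 genes. Tests were made on log2(RPKM + 0.5) with limma 3.58.1 (R 4.3.3, mean-variance trend, all 12 libraries, no block, Benjamini-Hochberg adjustment, threshold 0.05), after a test on simulated data. That scale understates the change of low genes. Differences are first-named minus second-named population, so that D minus C is positive where D is higher. Members and gene lists were chosen with earlier results of these data known. Named genes were the 4 members, Ikzf5, list genes past the threshold (otherwise the 2 with the smallest p per list and comparison), the 5 genes most like each member, and sort checks; 1 marker gene, and the sums that hold it, are not reported here. Per the labels, 1 mouse number marks 1 animal. On deviations from population means, same-mouse libraries had a mean correlation of -0.072 (-0.613 to 0.379, 1 of 18 pairs over 0.1), against 0.032 for other pairs. Such deviations cancel within each population, so these means are tied to each other and cannot decide whether pairing matters. Alternatives were the pseudocount, filter, scaling, block, the 6 libraries compared alone, A1 and B1 left out, each library left out, and, chosen after seeing the data, limma-voom on recovered reads. Sequences are from RefSeq (GRCm38.p6). Python 3.11.15, numpy 2.4.6, pandas 2.3.3 and matplotlib 3.10.9 did the rest.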

Additional observations from a re-analysis of the deposited data

How the results depend on the processing

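The D minus C differences of Ikzf2, Ikzf3 and Ikzf4 kept their direction in every alternative run, with sizes that depend on the scale. For Ikzf2 the log2 difference of 2.47 was 3.01 with a pseudocount of 0.1, 2.05 with 1, 2.36 after quantile normalization and 3.20 with limma-voom on recovered reads; for Ikzf4 the 1.61 was 1.76, 1.45 and, with limma-voom, 1.79. Leaving out 1 library at a time gave 2.43 to 2.51 and 1.56 to 1.66. A filter of at least 5 RPKM leaves no value for Ikzf2, whose mean is lower. In B minus A, leaving out A1 and B1 moved Ikzf2 to 2.66, Ikzf3 to 1.07 and Ikzf4 to 1.68, all past the threshold, and Ikzf1, at -0.01, to 0.037; single libraries left out gave -0.037 to 0.021 for Ikzf1, with 0.0024 without A1, none past the threshold. The mouse as a block changed no member's call. In the other 4 comparisons 348 of 348 alternative member values moved by less than 1 SD, but that SD holds A1 and B1 and is wide: 11 of the values had the opposite sign, and without B1 Ikzf2 turned in D minus B to -0.075, and without A1 in C minus A to 0.12. The number of all genes passing also depends on single libraries: in D minus C it was 1 to 398 and in B minus A 0 to 461 with a library left out, and 2 in B minus A with the mouse as a block. Partner and target genes passing in D minus C numbered 1, but 3 with the 6 libraries alone, 6 without A1 and B1, and 1 to 5 with a library left out (4 without A1, 5 without B1). In B minus A they numbered 2, but 1 after quantile normalization, 4 with the 6 libraries alone, 1 with the mouse as a replicate block, 5 without A1 and B1, and 0 to 5 with a library left out: 0 without A2, B2 or B3, 1 without A3, B1, C2, D2 or D3, and 5 without C1. The causes were not tested. The number of mice, 3, and 33 to 641 reads of Ikzf2 limit the precision.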
